A study of Mus musculus with 12 samples.

Results

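Polysome mRNA of mouse neural stem cells grown in high folate (pHF) was compared with polysome mRNA of the same kind of cells grown in mid folate (pMF). The comparison took 4 of the 12 libraries of the series, 2 biological replicates of pHF and 2 of pMF, and read 2 quantities in them: the share of reads left unconverted by bisulfite at single cytosines, and the read coverage of genes. All 4 libraries came from adult neural stem cells of the subventricular zone of wild-type C57BL/6 male mice, and every culture was kept for 4 days in its folic acid concentration, 80 μM for pHF and 10 μM for pMF. Polysome mRNA here is the poly(A)-selected RNA of the sucrose gradient fractions that held more than 3 ribosomes. The labels do not say whether replicates shared animals or days of culture, so p-values of the tests that use replicates measure the spread between these libraries only, and Fisher's test on pooled reads measures counting error. As bulk libraries, they cannot tell apart fewer cells of a type, less RNA per cell and fewer ribosomes per mRNA.

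Folate carries one-carbon units that cells use to make thymidylate, purines and methionine, and through methionine the methyl donor S-adenosylmethionine. 5-Methylcytosine (m5C) in mRNA is written with that donor, mostly by NSUN2, which favours cytosines followed by a run of guanines in a hairpin, and by NSUN6, which favours cytosines before TCCA. Bisulfite deaminates unmodified cytosines, which then appear as T in the reads, but leaves m5C as C. A cytosine read as C can therefore be m5C or an unmodified base that escaped conversion, and escape tends to hit several neighbouring cytosines of 1 read.

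For each library the deposited list gave cytosines with a coverage of at least 10 reads and at least 1 unconverted read, before the later filters of the study. A cytosine missing from a list may have had too few reads or no unconverted read. Of 2649024 cytosines listed without a variant base in any of the 4 libraries, 169120 were covered by 20 reads or more in each of the 4. Of these, 915 lay outside annotated genes, and the rest carried 5527 values of the gene column. The level at a site was the unconverted reads as a percentage of the C and T reads. The coverage of a gene was the median over its background cytosines, those with a level under 5%, for the 7992 genes with 10 or more of them in every library, out of 13416 with any in any of the 4.

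pHF replicate 2 stood apart. It listed 779105 cytosines without a variant base against 1120299 to 1226856 in the other 3 libraries, at a median coverage of 920 against 335 to 368. It also held 38353 cytosines with a level above 90% against 1390 to 2367, and 36288 of these were covered by fewer than 20 reads, below the minimum used here. Its share of unconverted reads at background cytosines was 0.128% against 0.183% to 0.191%. This share can fall with depth, since each listed cytosine has at least 1 unconverted read. Results are therefore given for each library, and the counts of called sites also without pHF replicate 2.

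Of 10 neural stem cell markers, 8 were measured by name, among them Vim (intermediate filament vimentin) with scaled coverages of 26048 and 22340 in pHF and 29034 and 31536 in pMF, and Nes (nestin) with 1691 and 929 in pHF and 1281 and 2076 in pMF. Fabp7, a fatty acid binding protein of radial glia, was at 13526 and 11185 in pHF and 8921 and 10763 in pMF. At matched cytosines 6 of these markers were measured, 3 with the higher mean in pHF and 3 with the lower. Sox2, a transcription factor of neural stem cells, carried no cytosine under its own name, because the cytosines inside it were assigned to the overlapping transcript Sox2ot. Those inside the Sox2 gene numbered 163 to 221 in each library, with scaled median coverages of 1189 and 1183 in pHF and 892 and 950 in pMF. Of 8 neuronal markers 2 reached 10 cytosines in every library, Map2 at 163 and 187 in pHF and 401 and 369 in pMF (unadjusted p = 0.0328, adjusted p = 0.881 by limma) and Tubb3 at 551 and 393 against 697 and 512, and none of 6 endothelial and 4 ependymal markers did. Of 10 fibroblast and pericyte markers 6 did, and their summed scaled coverage was 7999 and 8824 in pHF against 6475 and 5471 in pMF. On this measure Tagln carried the separation, at 4524 and 3793 against 2709 and 1653. Without it the sums overlapped, at 3475 and 5031 against 3766 and 3818. At matched cytosines 5 of the markers were measured, all with the higher mean in pHF. Their sums there, with Tagln, were 13372 and 14944 against 10059 and 10802. Pdgfrb, a receptor of pericytes, was at 132 and 246 in pHF and 381 and 316 in pMF. At matched cytosines its libraries overlapped, with the higher mean in pHF. The defining fibroblast genes Dcn, Lum and Postn were at 0 background cytosines in all 4 libraries. Of the astrocyte markers Gfap, Aqp4 and S100b were at 0, and the other 2 were measured. Gja1, the gap junction protein connexin 43, was at 485 and 1173 in pHF and 160 and 181 in pMF (unadjusted p = 0.00783, adjusted p = 0.632 by limma), and at matched cytosines, where its libraries overlapped, at 1845 and 2413 against 1932 and 1638. Aldh1l1 was at 239 and 226 against 345 and 319. All microglial markers but Cx3cr1 were at 0, while Olig1 and Olig2 of the oligodendrocyte lineage passed. Olig2 was at 1229 and 1078 in pHF and 702 and 651 in pMF (unadjusted p = 0.0444, adjusted p = 0.891 by limma). At matched cytosines it lay the other way, at 2040 and 1930 against 2224 and 2517. Olig1 was at 4792 and 3373 against 4920 and 5322. The part of other cell types in the results below was not tested.

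Candidate methylated sites were cytosines that reached a level of 10% and 6 unconverted reads in both replicates of pHF or of pMF. They numbered 1261, 864 from pHF and 987 from pMF with 590 shared, and the 703 covered by 20 reads or more in each of the 4 libraries were tested. This left out 212 of the 864 and 346 of the 987, so more sites from pMF were lost. The effect of this loss on the balance of directions below was not tested. Of the 1261, 169 were not listed at all in pHF replicate 2, against 13 to 54 in the other libraries. A site was called isolated if no other cytosine of the same strand within 25 bases passed the same filter in any of the 4 libraries, and clustered otherwise. This gave 176 isolated sites, in 165 gene values, and 527 clustered sites, and no tested site lay on the mitochondrial chromosome. All 703 sites had the same 21 bases in the mouse genome build GRCm38.p6 as in the deposited lists.

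The sequences below carry the site results, each with 10 bases on either side of the cytosine, in GRCm38 (mm10) coordinates, read 5′ to 3′ along the transcript as the lists give it. The capital marks the cytosine whose level was measured. The first 4 are the sites of Fscn1, Atn1, Col1a2 and Fbln2, 4 genes named by the study:
Fscn1, chr5:142961210-142961230, plus strand: cgccctggaaCagagctgcgc
Atn1, chr6:124745635-124745655, minus strand: agctggagcgCagtgtggtga
Col1a2, chr6:4518507-4518527, plus strand: ccaggtcaagCagtgagtatt
Fbln2, chr6:91268535-91268555, plus strand: cagatgtgaaCgagtgcgaga

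The next 4 were among the called isolated sites without overlap that had the largest difference towards pHF, and Wwox and Klhl26 hold the run of guanines from the second base after the cytosine:
Klhl26, chr8:70455571-70455591, minus strand: tggcctcctgCagggcctggc
Wwox, chr8:114706217-114706237, plus strand: gtgtgtaatgCagggacgttt
Rnf166, chr8:122466966-122466986, minus strand: tgtcatcaagCaggaccacca
Gpaa1, chr15:76331353-76331373, plus strand: gtcaagctgcCgcgagagcag

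The next 3 had the largest difference towards pMF among the called isolated sites, and the cytosine of Foxp4 is followed by TCCA:
Sorcs2, chr5:36018118-36018138, minus strand: gagcgaggccCgggtgtctca
Foxp4, chr17:47878666-47878686, minus strand: cttgctcaacCtccagaggca
Fam131a, chr16:20701938-20701958, plus strand: cctctgtggcCaaatgtgggc

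The last is the site of Kif3a, which was chosen after its values were seen because it is the other called site followed by TCCA:
Kif3a, chr11:53598786-53598806, plus strand: ggccacggacCtccaagggga

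Guanines followed the isolated sites more often than other cytosines. Guanine stood at bases 2, 3 and 4 after the cytosine in 59.7%, 62.5% and 51.1% of the 176 isolated sites, against 33.6%, 30.45% and 30.9% of 167242 background cytosines. The run GGG at those 3 bases was found in 44 of the 176 sites (25%), and in 2.39% of the background cytosines. TCCA directly after the cytosine was found in 11 of 176 (6.25%), against 0.812% of the background. Among the 527 clustered sites GGG was found in 19 (3.6%) and TCCA in none. Both motifs were read on the transcript strand at this fixed place only, and they cannot occur together.

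By the GENCODE vM21 annotation, 90 isolated sites lay in coding sequence, 62 in 3′ untranslated regions, 10 in 5′ untranslated regions, 6 in exons of noncoding transcripts, 1 in an intron and 7 outside genes. Of the clustered sites, 283 lay outside genes, where the median level was 100% in every library. A further 19 clustered sites lay in Atxn10 and 13 in Gm10800, at mean levels of 94.3% to 99.3% and of 96.9% to 99%. Near the coverage minimum, levels were mostly at or near 100%. The 108 tested sites whose least covered library had 20 to 22 reads had median levels of 100% in both conditions. For the 176 sites with 17 to 19 reads in their least covered library, which were left out, the medians were 98.9% in pHF and 100% in pMF.

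At the 169120 cytosines of the rule, the median level was 0.116% and 0.0758% in pHF replicates 1 and 2 and 0.112% and 0.117% in pMF. Levels were under 1% at 96.4% and 97.5% of these cytosines in pHF and at 96.9% and 96.5% in pMF. Over the 2403 genes with 10 or more of them, the median share of unconverted reads at background cytosines was 0.130% and 0.111% in pHF and 0.129% and 0.133% in pMF. The 2 conditions overlapped in each of these measures, and pHF replicate 2 was the least unconverted library in each. Each listed cytosine has at least 1 unconverted read, so the lowest possible level falls with depth. At these cytosines pHF replicate 2 had a median of 4585 reads, against 2586 to 2728 in the other libraries.

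The levels at isolated sites were on average slightly higher in both pHF libraries than in both pMF libraries. The mean over the 176 sites was 21.3% and 20.5% in the pHF libraries and 19.7% and 19.9% in the pMF libraries, a difference of 1.13 percentage points. The groups did not overlap, and the two-sided exact permutation p was 0.33, the smallest that 2 libraries against 2 allow. The medians overlapped, at 16.2% and 16.1% in pHF and 16.1% and 15.9% in pMF. The mean was higher in pHF at 114 sites and lower at 62. On these same 176 sites the difference of means was 0.74 to 1.53 points with any 1 library left out. Sites that passed the filter through 1 group only are among the 176, and their part in these differences was not tested. Over all 703 tested sites, which the clustered sites dominate, the means were 58.2% and 57.8% in pHF and 58.2% and 57.4% in pMF (difference 0.19 points, exact permutation p = 0.667).

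Site by site, reads of the 2 replicates were pooled and compared by Fisher's exact test with Benjamini-Hochberg adjustment over the 703 sites. This called 64 sites (9.1%), with a higher level in pHF at 47 (6.69%) and a lower one at 17 (2.42%). Isolated sites gave 33 of these calls (18.8% of 176), 27 higher (15.3%) and 6 lower (3.41%). Adjusted over the 176 isolated sites alone, the same test called 45 (25.6%), 33 higher (18.8%) and 12 lower (6.82%). Of the 33, 30 had no overlap between the groups, 24 of them higher and 6 lower. Among all 176 isolated sites the groups did not overlap at 56 with the higher level in pHF (31.8%) and 22 with the lower (12.5%), and among all 703 at 112 (15.9%) and 55 (7.82%). The test counts reads and takes no account of the difference between cultures: between the 2 pHF libraries alone it called 47 of the 703 sites, and between the 2 pMF libraries 8. Over the 176 isolated sites, adjusted over these alone, these numbers were 33 and 4, against 45 between the conditions. A beta-binomial test, which adds the spread between replicates as 1 overdispersion shared by all sites, called 2 sites (0.284%), both clustered outside genes on chromosome 10, at positions 39116870 and 39116873. At the first, pHF was at 83.5% and 16% and pMF at 98% and 89.8%, and the pHF replicates were 67.5 and 67.9 points apart at these sites. On isolated sites alone it called 0, with 12 at an unadjusted p under 0.05 in the fit over all sites and a smallest adjusted p of 0.0586, at Wwox. The Wwox site passed the filter through pHF only. limma on the log odds called 0 of 703 (48 at an unadjusted p under 0.05) and 0 of the isolated sites. Without pHF replicate 2, Fisher's test on the same 703 sites called 27, 26 of them higher in pHF, and on the same 176 isolated sites, adjusted over these alone, 19 in place of 45, of which 18 were higher. With the tested sites chosen again among the remaining libraries, 12 of the 33 isolated sites called with all 4 libraries were called without pHF replicate 2, and 25 without pHF replicate 1. The balance of directions moved with the library left out: on the same 703 sites, 38 were higher and 37 lower without pHF replicate 1, 18 and 15 without pMF replicate 1, and 38 and 20 without pMF replicate 2. On the same 176 isolated sites the higher calls outnumbered the lower ones without each library, by 31 to 12, 16 to 7 and 28 to 4 in the same order.

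**Figure D1:**
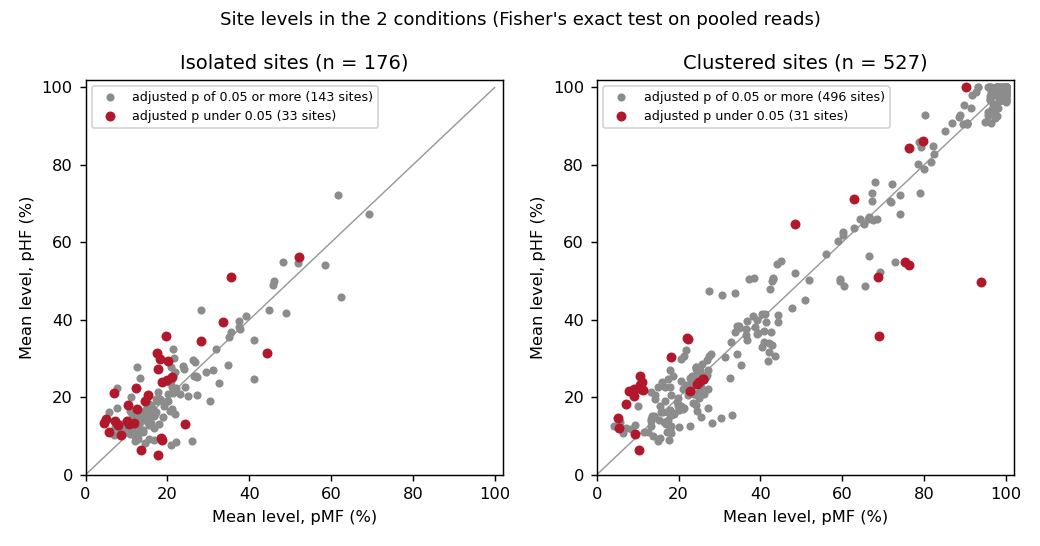
Mean level in pMF (x axis, %) and in pHF (y axis, %) at the 176 isolated and 527 clustered sites, 1 point per site and mean of 2 libraries each. Red points are the 33 isolated and 31 clustered sites with an adjusted p under 0.05 by Fisher's exact test on pooled reads. The line marks equal levels. Clustered sites gather near 100%, and isolated sites lie mostly under 40% in both conditions.

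The site of Fscn1, which encodes the actin-bundling protein fascin, was the most deeply read. It lies in coding sequence at position 142961220 of chromosome 5. Its level was 25.6% (95% Wilson interval 24.7 to 26.5, of 9131 reads) and 23.3% (22.6 to 24, of 14156 reads) in pHF, against 19.1% (18.2 to 20, of 7666 reads) and 20.6% (19.7 to 21.6, of 7152 reads) in pMF. Both pHF libraries lay above both pMF libraries, by 4.58 points between the means, while the replicates differed by 2.26 and 1.49 points. Fisher's test gave an adjusted p of 5.5e-21, and the beta-binomial test on isolated sites an adjusted p of 0.69. Such intervals cover counting error only and not the spread between cultures. The reads had no molecular identifiers, so copies of 1 molecule may count as separate reads and the intervals may be too narrow.

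In Fbln2, which encodes the matrix protein fibulin 2, the coding site was at 42.3% and 36.4% in pHF and at 33.5% and 33.8% in pMF. The pMF replicates were alike and the pHF replicates were 5.96 points apart, more than the 5.72 points between the groups. In Col1a2, the α2 chain of type I collagen, the coding site was at 10.1% and 10.3% in pHF and 9.05% and 8.12% in pMF, a difference of 1.65 points. The coding site of Atn1, the transcriptional corepressor atrophin 1, shared its gene value with Gm45234 and was at 14.2% and 13.4% in pHF and 9.52% and 10.9% in pMF. At all 4 of these genes the groups did not overlap and Fisher's adjusted p was 0.0111 or lower, and the beta-binomial and limma adjusted p-values were all above 0.05. The study named these genes from sites that differed between pHF and pMF by Fisher's test on the same samples. Their Fisher calls here repeat that choice and add no separate support. The sites of Col1a2 and Atn1 were under 10% in at least 1 pMF library and passed the filter through pHF only.

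The other isolated sites named, those with the largest differences towards pHF among called sites without overlap, had far fewer reads, from 70 to 319 per library. Sites with differences as large but fewer reads were not called, such as Tenm3 at 45.5% and 39.6% in pHF and 28% and 28.6% in pMF. In the coding sequence of Wwox, a WW domain oxidoreductase, the level was 15.7% and 26.8% in pHF and 7.46% and 6.42% in pMF. The site of Klhl26, an adaptor of a ubiquitin ligase, was at 48.7% and 53.5% in pHF and at 23.5% and 47.4% in pMF, so its pMF replicates were 23.9 points apart, more than the 15.6 points between groups. In Rnf166, a RING-type ubiquitin ligase, the 3′ untranslated site was at 25.2% and 19.7% in pHF and 12% and 12.9% in pMF. The site in the 5′ untranslated region of Gpaa1, a subunit of the enzyme that attaches GPI anchors, was at 14.1% and 14.5% in pHF and 6.94% and 3.2% in pMF. Among these 4 sites only Klhl26 had replicates further apart than the groups. Wwox and Gpaa1 were under 10% in both pMF libraries. They passed the filter through pHF only, which favours this direction by construction.

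Nelfb, a subunit of the negative elongation factor, was at 34.9% and 27.9% in pHF and 11.4% and 23.5% in pMF. The 3′ untranslated site of Fam219a was at 39.2% and 20.5% in pHF and at 18.3% in both pMF libraries. The 3′ untranslated site of Slc43a2, a transporter of neutral amino acids, was at 27.6% and 31.3% in pHF and 16.9% and 23.6% in pMF. The coding site of Gpr137 was at 30% and 24.7% in pHF and at 17.8% and 17.7% in pMF. These sites passed Fisher's test with adjusted p-values from 0.0327 to 0.0497, and at Fam219a pHF replicate 1 stood well above the other 3 libraries.

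All 6 isolated sites called lower in pHF had no overlap between groups, as had 12.5% of all isolated sites in that direction. Foxp4, Ephb3, Cep78 and Dele1 were under 10% in at least 1 pHF library. They therefore passed the filter through pMF only, which favours a lower level in pHF by construction. Sorcs2, a sorting receptor of the VPS10 family, was at 32.5% and 30.4% in pHF and 44.5% and 44% in pMF at a site in its 3′ untranslated region, 12.8 points lower with replicates at most 2.12 points apart. Foxp4, a forkhead transcription factor, was at 7.32% (3.4 to 15.1, of 82 reads) and 2.91% (1.25 to 6.62, of 172 reads) in pHF and at 18.8% (11.7 to 28.7, of 80 reads) and 16.5% (10.1 to 25.8, of 85 reads) in pMF. In Fam131a the 3′ untranslated site was at 14.4% and 11.6% in pHF and 22% and 26.5% in pMF. Ephb3, an ephrin receptor, had 9.7% and 8.28% against 14.3% and 23.3% in its 5′ untranslated region. Cep78, a centrosomal protein, had 7.59% and 11.6% against 14.8% and 22.1%, and Dele1, a mitochondrial stress sensor, had 10.2% and 2.84% against 15.1% and 11.8%. The beta-binomial test on isolated sites gave Foxp4 an adjusted p of 0.0646 and each of the other 5 one of 0.224 or higher.

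**Figure D2:**
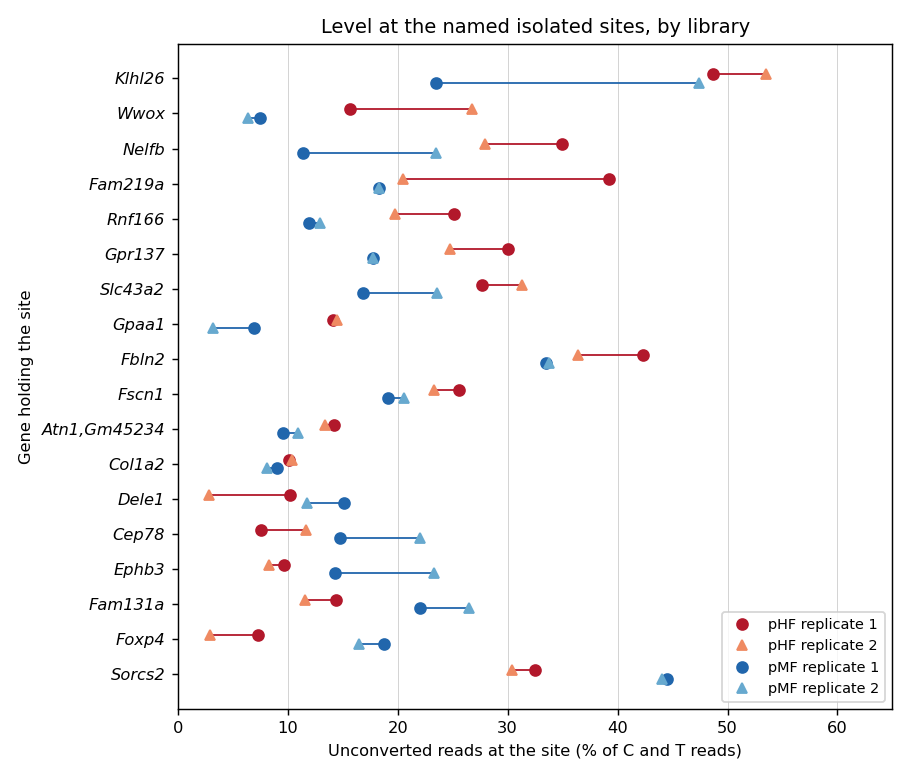
Level (x axis, % of C and T reads) at the named isolated sites in the 4 libraries. Circles are replicate 1 and triangles replicate 2, red and orange for pHF and blue for pMF, and a line joins the replicates of a condition. The 2 conditions are apart at each site, and at Klhl26, Fam219a, Fbln2 and Dele1 the replicates of 1 condition are further apart than the means of the conditions.

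By sequence class, the isolated sites differed little. The mean level of the 44 sites with GGG was 24.1% and 24.2% in pHF and 22.6% and 23.5% in pMF. That of the 132 sites without it was 20.4% and 19.3% in pHF and 18.8% and 18.6% in pMF. All 6 called sites with GGG were higher in pHF, as were 21 of the 27 called without it. The 11 sites followed by TCCA averaged 25.2% and 24.4% in pHF and 23.9% and 24.6% in pMF, with 6 higher and 5 lower. Their 2 calls ran opposite ways: Foxp4 was lower, and Kif3a, a motor subunit of kinesin 2, was at 12.9% and 13.8% in pHF and 4.61% and 4.63% in pMF, with a beta-binomial adjusted p over isolated sites of 0.0646. Each of these 2 sites passed the filter only through the group where it was higher. By place in the transcript, 58 of 90 coding sites and 40 of 62 sites in 3′ untranslated regions had a higher mean in pHF.

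Among the clustered sites, stretches with 3 or more calls lay in 5 genes, picked out after their values were seen. Hic1, a zinc finger repressor, held 11 tested cytosines in a stretch of its coding sequence, all without overlap towards pHF and 5 of them called. Their mean level was 25.9% and 27.9% in pHF and 18.1% and 15.4% in pMF. Cavin1, a coat protein of caveolae, held 10, all with the higher mean in pHF and 3 called, at 66.6% and 67.1% against 57.8% and 66%. Ntn1, the axon guidance cue netrin 1, held 10, all with the lower mean in pHF and 3 called, at 51.1% and 46.3% against 72.1% and 56.2%. Skida1 held 8 coding cytosines, all without overlap towards pHF and 7 called, at 25% and 18% against 10.8% and 8.19%. All were under 10% in pMF replicate 2, so they passed the filter through pHF only. Cmss1 held 7 in an intron with 5 called, but its libraries overlapped at each, at 26.1% and 20.8% against 23.3% and 25.8%. The single clustered site named for Ntn1, at position 68212868 of chromosome 11, was at 58.5% and 50% in pHF and 84.3% and 68.4% in pMF. Neighbouring cytosines are read from the same molecules, so the cytosines of a stretch are 1 observation, and conversion failure and methylation cannot be told apart there.

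No gene's coverage passed the test between pHF and pMF. For each library, gene medians were divided by 1 factor per library, the median ratio to the mean over the 4 libraries on a log scale, which gives the scaled coverage in reads per cytosine. limma called 0 of 7992 genes at an adjusted p under 0.05 (0%), with a smallest adjusted p of 0.417 and 424 genes at an unadjusted p under 0.05, 329 of them with the higher value in pHF and 95 with the lower. The standard deviation over genes of the log2 coverage difference was 0.89 between the 2 pMF libraries, 0.86 between the 2 pHF libraries, and 0.87 to 0.94 between a pHF and a pMF library. The differences of the libraries numbered 1 and of those numbered 2 had the same sign in 49.9% of genes, and their correlation across genes was 0.02, as a description. Each library lists its own cytosines, so the median of a gene is taken over a different set in each library. The part of this in the spread was not tested.

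A second measure therefore used only the 166655 background cytosines in genes that were listed in all 4 libraries, for the 2372 genes with 10 or more of them. It covered a median of 37 cytosines a gene, and it holds the more deeply covered genes, so its spread is not that of the same genes. On it the standard deviation was 0.23 between the pMF libraries, 0.32 between the pHF libraries and 0.22 to 0.35 between conditions. limma again called 0 genes (0%), with a smallest adjusted p of 0.234 and 288 genes at an unadjusted p under 0.05, 148 higher and 140 lower. The groups did not overlap for 558 genes with the higher values in pHF (23.5%) and 533 with the lower (22.5%), against 1370 (17.1%) and 1513 (18.9%) of the 7992. Same-numbered libraries differed with the same sign in 54.1% of genes.

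**Figure D3:**
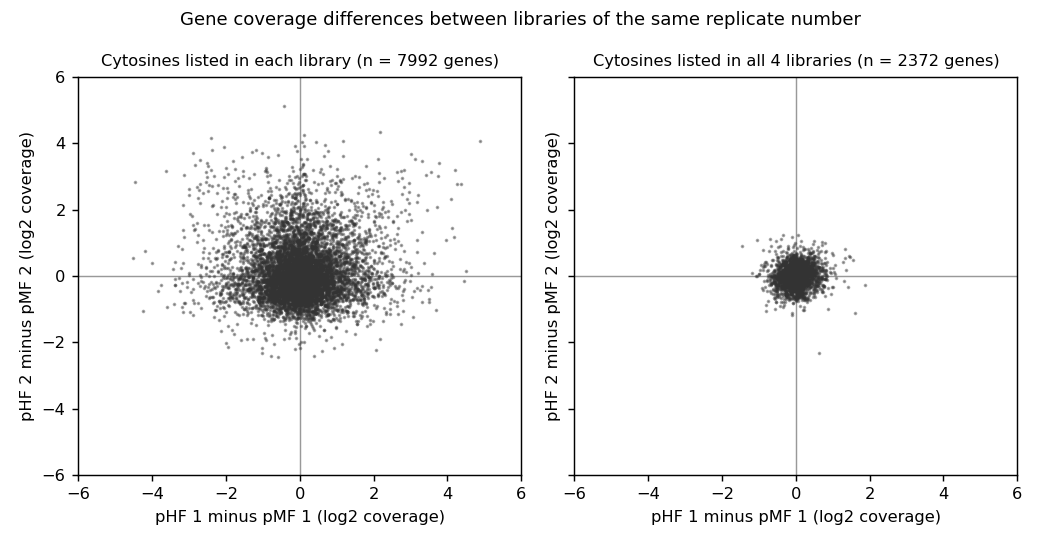
Difference in log2 scaled coverage between pHF and pMF for the libraries numbered 1 (x axis) and those numbered 2 (y axis), 1 point per gene. Left, the cytosines each library lists (7992 genes, r = 0.02), and right, the cytosines listed in all 4 libraries (2372 genes, r = 0.09). Most points on the right lie within 1 of 0 on both axes, and those on the left spread wider.

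The 12 genes with the smallest p towards pHF among those without overlap on the first measure were looked up at matched cytosines. Pcmt1, a repair methyltransferase of damaged aspartyl residues, had scaled median coverages of 1761 and 1256 in pHF and 163 and 153 in pMF. It listed 72 and 59 background cytosines in pHF and 141 and 169 in pMF, and at the cytosines listed in all 4 its coverage was 2821 and 2293 in pHF and 2647 and 2633 in pMF. Tmx1, a thioredoxin of the endoplasmic reticulum, had 2408 and 1734 against 278 and 151, and at matched cytosines 2889 and 2508 against 2341 and 2426. Nnat (neuronatin) had 2930 and 1526 against 171 and 307, and at matched cytosines 4093 and 3350 against 4946 and 4979. Their log2 differences on the first measure were 3.23, 3.32 and 3.20, and at matched cytosines Nnat lay the other way. Chchd3, a protein of mitochondrial cristae, and Spc25, of the kinetochore, were the other 2 of the 12 with enough matched cytosines. Mrpl13, Dck, Atg5, Tmem209, Zfp414, Rgs19 and Bnip3l were not measured there.

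Of the 12 genes with the smallest p towards pMF on the first measure, only Ckb, the brain creatine kinase, was measured at matched cytosines. It had 23515 and 22430 in pHF and 36400 and 32951 in pMF, and at matched cytosines 32903 and 26794 against 39538 and 38003, with no overlap on either. The others, Rnf24, Mboat7, Paqr8, Pom121, Arhgap32, Aurkb, Gltp, Zdhhc16, Rexo2, Pmf1 and Ikbkb, had log2 differences from -2.13 to -1.41. None of these genes passed the adjusted threshold, so the values below are given at matched cytosines, where replicates were closer.

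At matched cytosines none of the genes with the smallest p towards pHF passed the adjusted threshold (limma, adjusted p 0.234 to 0.255). Acta2, the smooth muscle actin, was at 957 and 1114 in pHF and 590 and 546 in pMF, a log2 difference of 0.86 ± 0.16 (SE). Tagln, the actin-binding protein transgelin, was at 4865 and 5274 against 2767 and 3152. Fbln5, the elastic fibre protein fibulin 5, was at 1359 and 1571 against 897 and 855. For these 3 genes the gap between the groups was wider than either gap between replicates, which their choice by no overlap and small p favours.

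Ddit3 encodes CHOP, a transcription factor of the unfolded protein response. It was at 12990 and 10633 in pHF and 5142 and 7233 in pMF, a log2 difference of 0.95 ± 0.2. Ppp1r15a, which encodes the CHOP target GADD34, a phosphatase subunit that removes phosphate from eIF2α, was at 6931 and 6139 against 2541 and 4016. Ero1l, an oxidase for protein disulfides and another CHOP target, was at 1697 and 2068 against 675 and 1173. For all 3, pMF replicate 1 was the lowest library and on the log2 scale the pMF replicates lay further apart than the pHF replicates.

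The other genes of this group were Gsto1 (a glutathione transferase), Anxa3 (an annexin), Ttc1, Fez1, Ctsl (cathepsin L) and Sde2, with log2 differences from 0.58 to 0.82 and no overlap. Anxa3 was at 4444 and 4597 in pHF and 2556 and 2792 in pMF. Ctsl was at 7295 and 7128 against 4186 and 4883. For both, the gap between the groups was wider than either gap between replicates, which the same choice favours.

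Towards pMF, Mlc1, a membrane protein of astrocytes and their progenitors, was at 2508 and 2068 in pHF and 4363 and 4265 in pMF, a log2 difference of -0.92 ± 0.16 (SE), while on the first measure its libraries overlapped. Gadd45g, a growth arrest gene, was at 1605 and 1439 against 2814 and 2655, over 11 cytosines only. Sdc3 (syndecan 3) was at 951 and 920 against 1600 and 1543, and Hes6, a bHLH factor of neurogenesis, at 1601 and 1432 against 2328 and 2476. Apoe was at 10665 and 10072 against 15075 and 15604, and Vim at 25859 and 26748 against 36670 and 33814. Mfge8, Tyro3, Dbn1, Adcy6 and Scap had log2 differences from -0.64 to -0.54. At matched cytosines none of these genes overlapped between the groups, with adjusted p-values of 0.234 to 0.259 by limma. On the first measure Sdc3 and Adcy6 overlapped as Mlc1 did, with Sdc3 at 622 and 526 in pHF and 749 and 521 in pMF.

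**Figure D4:**
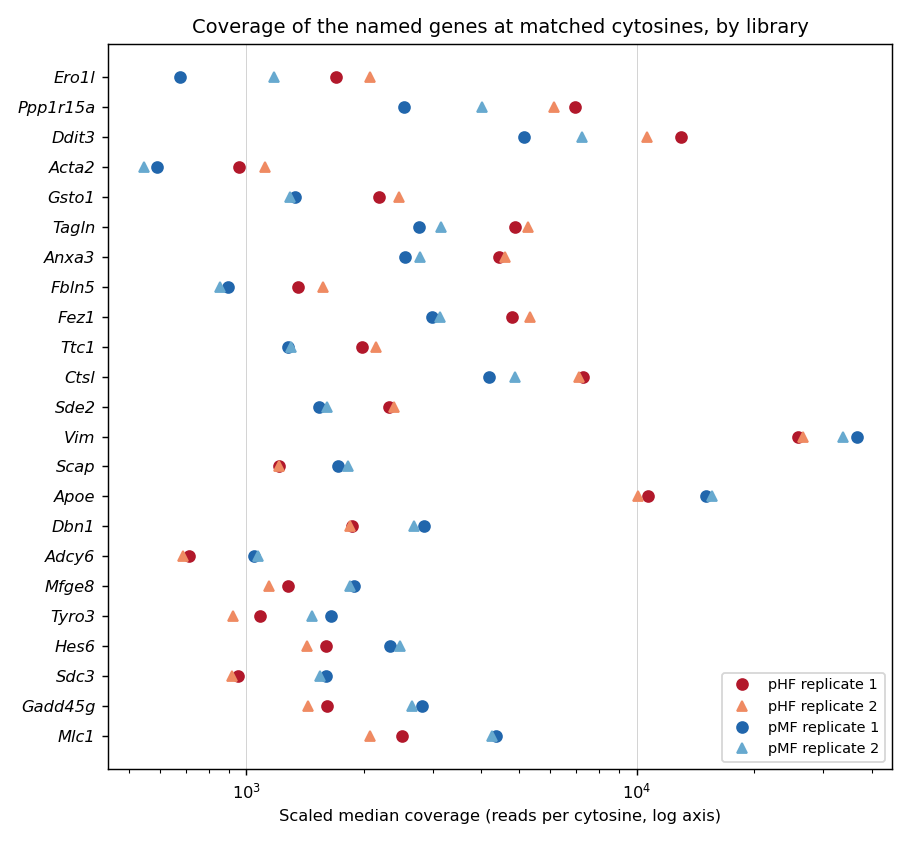
Scaled median coverage at matched cytosines (x axis, reads per cytosine, log axis) of named genes, those with the smallest p in each direction among those without overlap. Circles are replicate 1 and triangles replicate 2, red and orange for pHF and blue for pMF. The conditions are apart at every gene by the rule that chose them, and no gene reached an adjusted p under 0.05.

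Of the functional gene lists with over 5 members measured at matched cytosines, the aminoacyl-tRNA synthetases, which load amino acids onto tRNAs, had the largest median difference towards pHF. Of 20 members, 18 were measured at matched cytosines, and both pHF libraries lay above both pMF libraries for 12 of them, against 23.5% of all genes, and below for 1. The median log2 difference was 0.28, against 0.00068 over all genes, 0.23 between the libraries numbered 1 and 0.28 between those numbered 2, and 0.19 without pHF replicate 2. The rank moved with the libraries. Without pHF replicate 2 the cytosolic heat shock genes led at 0.22, and between the libraries numbered 1 the ATF4 stress response genes led at 0.28. Rars was at 4263 and 6240 in pHF and 3099 and 3208 in pMF, Wars at 3756 and 4868 against 2730 and 2968, and Farsb at 2516 and 3044 against 1815 and 2080. On the first measure 20 were measured, 12 were without overlap towards pHF (17.1% of all genes were) and the median was 0.3. None passed the adjusted threshold on either measure.

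Genes of the ATF4 stress response, the transcription programme that follows phosphorylation of eIF2α, had a median of 0.21, with 6 of 18 measured members without overlap towards pHF and 0 towards pMF, against 23.5% and 22.5% of all genes at matched cytosines. Psph, the last enzyme of serine synthesis, was at 10464 and 12753 in pHF and 7658 and 7950 in pMF, and Atf4 itself at 5964 and 8442 against 4753 and 4850. Of 13 ER chaperones 4 were without overlap towards pHF and 1 towards pMF, at a median of 0.1 that was -0.02 without pHF replicate 2. Hspa5 (BiP), the leading chaperone of the endoplasmic reticulum, was at 4029 and 5891 against 2318 and 2956. Of 9 cytosolic heat shock genes 5 were without overlap towards pHF and 1 towards pMF, at a median of 0.24, with Hspd1 at 3880 and 5076 against 3092 and 3550.

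Of 25 genes of the actin cytoskeleton and myosin, 13 were without overlap towards pHF and 3 towards pMF (23.5% and 22.5% of all genes), at a median of 0.19. Of 18 genes of collagens, laminins and matrix glycoproteins 8 and 4 were, the latter close to the share of all genes, at a median of 0.19 that was 0.06 without pHF replicate 2. Here Lama5 (laminin α5) was at 971 and 1147 in pHF and 1481 and 1537 in pMF, and Lamb1 (laminin β1) at 3912 and 4849 against 2577 and 3717. Of the 10 fibroblast and pericyte markers, 5 were measured at matched cytosines and 3 were without overlap towards pHF (Acta2, Tagln and Fn1), while Col1a2 was at 2968 and 3876 against 3234 and 3196. All 5 had the higher mean in pHF, at a median of 0.37 (0.38 without pHF replicate 2). The part of cell composition in these values was not tested.

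The ribosomal proteins, translation factors, proteasome subunits and splicing factors had medians of 0.12 or less. Of 60 cytosolic ribosomal proteins 18 were without overlap towards pHF and 2 towards pMF (23.5% and 22.5% of all genes), at a median of 0.07, with Rpl3 at 8734 and 14126 in pHF and 8061 and 7624 in pMF. Of 37 translation factors 15 and 2 were, at a median of 0.1, with Eif2b3, a subunit of the exchange factor of eIF2, at 1582 and 1549 against 989 and 1183. Of 29 proteasome subunits 11 and 1 were, at a median of 0.12, and of 30 splicing factors 7 and 5, at a median of 0.07. In the proteasome list the median was 0.02 between the libraries numbered 1 and 0.26 between those numbered 2, and 0.05 without pHF replicate 2. The median of the splicing factors was -0.02 without that library.

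Genes of DNA replication and the cell cycle had a median of -0.2, with 9 of 21 measured members without overlap towards pMF and 0 towards pHF (22.5% and 23.5% of all genes). Cdc20, an activator of the anaphase-promoting complex, was at 1204 and 1394 in pHF and 2155 and 1744 in pMF, and Top2a at 2122 and 2429 against 2849 and 3088. The median was -0.38 between the libraries numbered 1 and 0.03 between those numbered 2, and -0.07 for the 44 members of the first measure. Cholesterol synthesis had a median of -0.17, with 4 of 8 members without overlap towards pMF, and the stearoyl-CoA desaturase Scd1 at 807 and 1019 against 1536 and 1315. The nuclear-encoded respiratory chain had a median of -0.08, with 12 of 65 towards pMF and 6 towards pHF, both below the shares of all genes, and its median was -0.04 without pHF replicate 2.

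**Figure D5:**
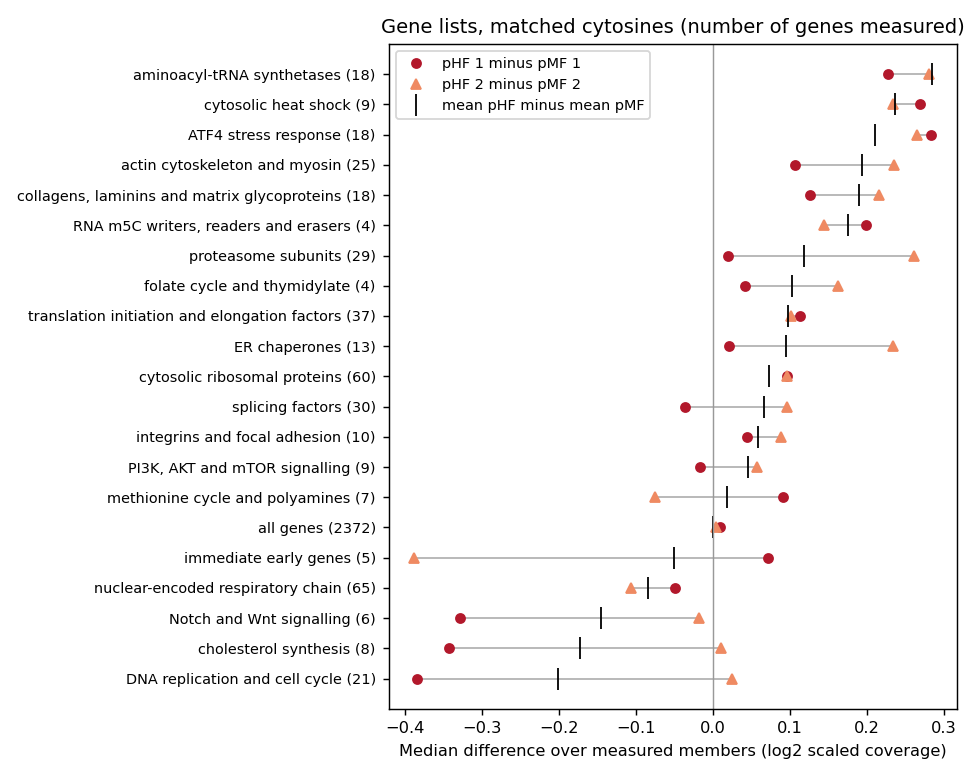
Median difference in log2 scaled coverage (x axis) over the measured members of each gene list at matched cytosines, with the number measured in parentheses. Circles are pHF 1 minus pMF 1, triangles pHF 2 minus pMF 2, and ticks the difference of the group means. The aminoacyl-tRNA synthetases and the ATF4 and heat shock lists lie to the right in both, while for the cell cycle and cholesterol lists the circles and ticks lie to the left and the triangles near 0.

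Folate and methyl metabolism were thinly measured at matched cytosines. Of 24 genes of the folate cycle and thymidylate synthesis 4 had enough matched cytosines, with a median of 0.1 (0.02 without pHF replicate 2) and 0 at an unadjusted p under 0.05. Mthfd2, the mitochondrial methylenetetrahydrofolate dehydrogenase, was at 4586 and 4960 in pHF and 3492 and 4053 in pMF, Tyms (thymidylate synthase) at 1488 and 1467 against 1739 and 1578, and Atic, of purine synthesis, at 3476 and 3827 against 3230 and 3250. Of 21 genes of the methionine cycle and polyamines 7 were measured, with a median of 0.02. On the first measure 19 of them were, with a median of 0.43 that was 0.02 without pHF replicate 2. There 17 genes of the folate list were measured, with a median of 0.0045. Cth, which makes cysteine from cystathionine, was at 1990 and 3435 against 1418 and 1662, and Oaz1 (ornithine decarboxylase antizyme) at 2911 and 2352 against 3490 and 3797.

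Among the enzymes and readers of RNA m5C, 4 of 14 were measured at matched cytosines. Nsun2, the main mRNA methyltransferase, was at 2863 and 2934 in pHF and 2094 and 2326 in pMF, a log2 difference of 0.39 ± 0.14 with an unadjusted p of 0.0246 and an adjusted p of 0.375 by limma. Nop2, a ribosomal RNA methyltransferase, was at 1958 and 2109 against 1688 and 1659 over 10 cytosines only, while on the first measure its libraries overlapped, at 592 and 1106 against 1056 and 1231, and Alyref, a reader of m5C, at 1747 and 1578 against 1923 and 2011. The groups did not overlap at these 3 genes, 2 with the higher and 1 with the lower values in pHF (23.5% and 22.5% of all genes).

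At matched cytosines, which this paragraph uses unless stated, 6 of 37 genes of Notch and Wnt signalling were measured. Their median was -0.14 (-0.26 without pHF replicate 2), with 4 of the 6 below 0. Hes6 is given above, and Jag1, a Notch ligand, was at 1661 and 2101 in pHF and 1181 and 1382 in pMF. In PI3K, AKT and mTOR signalling 9 of 34 were measured, at a median of 0.05 (-0.05 without pHF replicate 2) with 5 above and 4 below 0, and Fgfr1 was at 1744 and 1536 against 2201 and 2243. On the first measure 28 of the Notch and Wnt genes were measured, 4 without overlap towards pHF and 10 towards pMF. Of the PI3K, AKT and mTOR genes 31 were, with 2 and 10 (17.1% and 18.9% of all genes). Of 20 integrin and focal adhesion genes 10 were measured, and Itgb1 (integrin β1) was at 4588 and 6040 against 3469 and 4091. The 5 immediate early genes measured had no member without overlap (the groups did not overlap for 23.5% of all genes towards pHF and 22.5% towards pMF). On the first measure 16 were measured, 4 without overlap towards pHF and 1 towards pMF (17.1% and 18.9% of all genes). Gas5, the only one of 29 noncoding and snoRNA host genes with enough matched cytosines, overlapped there too. Of the mitochondrially encoded mRNAs, mt-Co1 was at 994 and 678 in pHF and 1067 and 1486 in pMF and mt-Nd6 at 2282 and 1357 against 2466 and 3056, with pHF replicate 2 the lowest library in both.

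Of the genes named by the study, Fbln5 and Acta2 are given above. Ptch1, the receptor of Hedgehog, was at 3638 and 3614 in pHF and 3371 and 3303 in pMF at matched cytosines, Hdgf, a growth factor, at 4586 and 3917 against 4340 and 4326, and Glg1, a Golgi glycoprotein, at 1926 and 2277 against 2590 and 2586. Ndufa13, a subunit of complex I that shares its gene value with Yjefn3, was at 9529 and 6217 against 9668 and 10090. Col8a1 and Slit3 were measured on the first measure only, at 220 and 192 against 101.7 and 70.7 and at 388 and 280 against 249 and 320. Ptx3, Gng11, Dgcr2, Ogn and Ednrb were not measured.

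Level at a site and coverage of its gene were set side by side. Fscn1, with a higher level in pHF, had a coverage of 6329 and 7317 in pHF and 5880 and 5376 in pMF at matched cytosines, a log2 difference of 0.28 (unadjusted p = 0.111 by limma). Fbln2 had 2179 and 2578 against 2661 and 2684, and Col1a2 2968 and 3876 against 3234 and 3196, so that 1 of the 3 had the higher coverage in both pHF libraries. On the first measure Fbln2 lay the other way, at 1927 and 1933 in pHF and 1846 and 1886 in pMF. There Fscn1 was again higher in both pHF libraries and Col1a2 overlapped. Sdc3 held an isolated site followed by TCCA, at 57.6% and 51.8% in pHF and 48.1% and 55.5% in pMF. The coverage of Sdc3 was lower in pHF at matched cytosines, and its libraries overlapped on the first measure. Across the 58 isolated sites whose 54 genes were measured at matched cytosines, the correlation of the difference in level with the log2 difference in coverage was -0.19 (Spearman's rho -0.19), as a description over sites that share 4 libraries. On the first measure, over 159 sites in 155 genes, it was -0.30 (rho -0.255). The median log2 coverage difference of these 54 genes was -0.07, with 20 above and 34 below 0.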

How the data were processed

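RNA bisulfite libraries of polysome mRNA were mapped to mm10 by the authors, who called cytosines per library and annotated them. The deposited lists give, per cytosine, counts of coverage and unconverted reads, and the deposited level is a fraction of unconverted reads. Levels were recomputed from the counts without variant reads. No replicates were pooled in the deposited lists. Sites were compared by Fisher's exact test, which the study also used, by a beta-binomial test (scipy 1.17.1) and by limma 3.58.1 (R 4.3.3) on log odds with 0.5 added. The sites tested here were chosen without the later filters of the study. The number of calls can therefore not be set beside that of the study. Scaled log2 gene coverage was compared by limma with a trended prior. The p-values of these tests were adjusted by Benjamini-Hochberg, with a threshold of 0.05, over every site or gene tested, or over the isolated sites alone where stated. Permutation p-values were not adjusted. The gene coverage test and the beta-binomial test were also run on simulated data. How often the tests used here miss differences of the sizes seen in these libraries was not tested.

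The gene lists and the named items were chosen with earlier results of these data known. Named sites were those of 4 study genes and, among called sites without overlap, up to 8 in each direction by size, isolated ones first. Named genes were 12 in each direction without overlap, filled in order of unadjusted p because none was called. 1 of these genes is not reported here. Each list names up to 3 members by p. Sites and genes were read with Python 3.11.15, and transcript features came from GENCODE vM21. Same-numbered libraries were not paired: their deviations from the group means had a correlation of -0.06 across genes, and of -0.38 at matched cytosines.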

Additional observations from a re-analysis of the deposited data

Results flagged for a closer look

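pHF replicate 2 listed 38353 cytosines with a level above 90%, 4.92% of its cytosines, against 1102 to 3465 in the other 11 libraries of the series. Of these, 36288 were covered by fewer than 20 reads and enter no comparison above, and 28527 lay outside annotated genes. Their median coverage was 12 reads. The cause was not tested.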

How the results depend on the processing

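The count of 64 sites fell to 23 with a minimum level of 20%, to 2 with the beta-binomial test and to 0 with limma on the log odds, and on isolated sites both of these called 0. With the replicate block, limma on the log odds called 23 sites. Leaving out each library gave 43 to 126 sites with the filter applied anew (29 to 80 isolated, with 35 without pHF replicate 2 and 38 without pMF replicate 2), and on the same 703 sites 27 to 75, with 27 without pHF replicate 2 and 33 without pMF replicate 1. On the same 176 isolated sites, where all 4 libraries gave 45 with adjustment over these alone, it gave 19 to 43, with 19 without pHF replicate 2, 23 without pMF replicate 1 and 32 without pMF replicate 2. The mean difference over tested sites, 0.19 points, was -0.13 with a minimum level of 20%, -1.82 with reads pooled over sites, 0.59 and 1.23 at a minimum coverage of 50 and 100, 0.98 as the median over sites, 1.22 at the study's high-confidence positions, and -0.57 to 1.57 with a library left out and the filter applied anew (-0.10 to 3.35 for isolated sites). By construction, that filter lets in sites that are high in the lone library of a group, which shifts the mean towards that group. On the same 703 sites it was -0.011 without pHF replicate 1 and -0.17 without pMF replicate 2, and with the filter applied anew -0.57 without pMF replicate 2 and, for isolated sites, -0.10 without pMF replicate 1. Genes differing in coverage numbered 0 with each other scaling or filter tried, 3 without pMF replicate 1, 1 without pMF replicate 2 and 21 at matched cytosines without pMF replicate 2, so a range of 0 to 21. That range leaves out the fits with the replicate block. With the block the count was 0, and 17 at matched cytosines, where exchanging the numbers of pMF gave 215. The share of genes with the same sign, 49.9%, was 54.1% at matched cytosines, 53.4% with means in place of medians and 51.1% with a background level under 2%. The cause of the other changes was not tested. The alternatives on isolated sites, on the same sites, and on matched cytosines beyond the first were chosen after seeing the data. At the coverage minimum of 20, 1 read is 5 points of level in a single library.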
